A study of Mus musculus with 3 samples.

Results

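Endothelial leukocyte adhesion molecules are the proteins by which the vessel wall catches white blood cells, and 8 of their genes were followed here across the cells of the mouse hypothalamus: the selectins Sele and Selp, the chemokine-binding receptor Ackr1, the immunoglobulin-family ligands Vcam1, Icam1 and Icam2, the junction molecule Pecam1, and Vwf, which encodes von Willebrand factor. They were taken by symbol from the 32285 genes of the count matrices, of which 27062 had at least 1 UMI (unique molecular identifier, 1 per captured transcript) in the cells kept. All 8 were found. The study asked whether heat exposure leaves a lasting mark on the cell composition and transcription of the hypothalamus. Male mice aged 8 weeks and of comparable body weight supplied 3 single-cell RNA libraries. The HS library came from heat-exposed mice, the QS library from mice in recovery after the exposure, and the PF library from control mice given an intake matched to that of the exposed mice. The sources used here give neither the strain, nor how many mice went into a library, nor how long recovery lasted, and the RT condition that the design also names was not analysed here.

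Leukocytes leave the blood mainly through postcapillary venules, in steps. E-selectin and P-selectin let them roll, chemokines held on the endothelium activate their integrins, and VCAM-1 and ICAM-1 then stop them, after which they pass through junctions that hold PECAM-1. In the brain the resting endothelium shows little of the selectins, and cytokines acting through the transcription factor NF-kB are known to raise Sele, Vcam1 and Icam1.

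In the mm10 build, Sele lay on chromosome 1 at 164048234-164057677 on the plus strand, with Selp downstream of it at 164115264-164150026 on the same strand. Ackr1 lay on chromosome 1 at 173331886-173333750 (minus strand), Vcam1 on chromosome 3 at 116109949-116129688 (minus strand) and Icam1 on chromosome 9 at 21015985-21028817 (plus strand). Icam2 (106377656-106388075) and Pecam1 (106654217-106750628) were both on the minus strand of chromosome 11, and Vwf lay on the plus strand of chromosome 6 at 125546774-125686679. The annotation places antisense genes over Vcam1 (Gm43109), Icam1 (Gm47079) and Selp (Gm16587), a noncoding gene over Selp on the opposite strand (Gm16548), and Cadm3 over Ackr1 on the same strand. Counting by strand is not stated in the sources used here, so UMIs of such partners cannot be told apart with certainty.

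Promoter sequences are shown for the 4 members found in the RefSeq table (GRCm38.p6), whatever their levels. Each line holds the 250 bases before the start that RefSeq gives, 5′ to 3′ on the strand of the gene. For Ackr1 that start differs from the GENCODE start behind the position above, and 247 of the 250 bases, the match included, lie inside the gene as GENCODE has it. The other 3 windows lie wholly outside the gene. Capitals mark matches to GGNNNTTCC or its reverse complement GGAANNNCC, a loose form of the sequence NF-kB binds.
Sele (chr1:164047984-164048233, plus strand): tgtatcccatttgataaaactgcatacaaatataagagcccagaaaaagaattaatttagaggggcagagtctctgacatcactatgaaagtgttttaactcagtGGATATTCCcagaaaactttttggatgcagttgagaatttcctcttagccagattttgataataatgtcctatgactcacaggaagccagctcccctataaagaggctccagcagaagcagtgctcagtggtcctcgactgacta
Selp (chr1:164115014-164115263, plus strand): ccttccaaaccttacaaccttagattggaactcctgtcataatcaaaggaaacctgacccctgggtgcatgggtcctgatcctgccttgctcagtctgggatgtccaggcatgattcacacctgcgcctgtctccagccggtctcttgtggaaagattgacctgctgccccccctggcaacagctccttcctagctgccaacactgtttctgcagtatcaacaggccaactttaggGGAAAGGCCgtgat
Ackr1 (chr1:173333504-173333753, minus strand): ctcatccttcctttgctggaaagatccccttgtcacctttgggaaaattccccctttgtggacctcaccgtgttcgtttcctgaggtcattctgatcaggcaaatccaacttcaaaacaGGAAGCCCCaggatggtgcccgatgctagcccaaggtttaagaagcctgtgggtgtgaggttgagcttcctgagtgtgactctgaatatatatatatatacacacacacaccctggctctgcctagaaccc
Icam1 (chr9:21015690-21015939, plus strand): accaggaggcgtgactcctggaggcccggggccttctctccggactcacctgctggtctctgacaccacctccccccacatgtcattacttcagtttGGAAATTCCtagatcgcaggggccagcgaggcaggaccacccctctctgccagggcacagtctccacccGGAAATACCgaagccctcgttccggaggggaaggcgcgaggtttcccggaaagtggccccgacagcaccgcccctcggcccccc
Icam1 held GGAAATTCC at 153 to 145 bases before its start, which matches the motif on both strands, and GGAAATACC at 84 to 76. Sele held GGATATTCC at 145 to 137, Ackr1 GGAAGCCCC at 131 to 123 and Selp GGAAAGGCC at 14 to 6 bases before the start. The motif occurred in all 4 of these windows and in 5144 of 32851 promoter windows of this length (15.7%). A match is a description of letters and not a binding site. Vcam1, Icam2, Pecam1 and Vwf have no entry in the table.

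The files held 103891747 UMIs for HS, 93295920 for QS and 100727912 for PF, and 11630 HS, 10782 QS and 11858 PF cells were kept, with medians of 6298, 6162 and 6143 UMIs per cell. Endothelial-like cells numbered 3836 in HS, 3204 in QS and 4047 in PF, and sub-clustering without the 8 members gave 1264 venous-like, 5236 capillary-like, 3114 arterial-like and 162 fenestrated-like cells. Of the markers of each subtype, 9 of 10 venous, 8 of 10 capillary, 13 of 14 arterial and 7 of 7 fenestrated markers were highest in the subtype they name. The same markers gave the sub-clusters their names, so these counts describe the naming and are not an independent check of it. Between 37 and 51 cell barcodes were shared by any pair of libraries. Some classes were scarce in QS. Pituitary or pars tuberalis-like cells numbered 119 in HS, 7 in QS and 167 in PF. Fibroblast-like cells numbered 330, 70 and 311, and fenestrated-like cells 86, 5 and 71. Oligodendrocyte-like cells, at 890, 1267 and 963, were most numerous in QS. A difference in the tissue sampled for QS cannot be told apart from recovery. Haemoglobin RNA was uneven between libraries and classes. Erythroid markers summed to 1481 CPM in HS, 4441 CPM in QS and 1489 CPM in PF over the endothelial-like cells, mostly in sub-clusters without a name, while the haemoglobin genes had 56.0 CPM in HS, 161 CPM in QS and 1217 CPM in PF in astrocyte-like cells. Each group is 1 library, so no difference can be set against the spread between mice, no p-value is given, and higher and lower describe the libraries. Intervals are 95% intervals for counting error only. For levels and ratios of every member they treat UMIs as independent and do not cover unevenness between cells.

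Levels are CPM, the UMIs of a gene per 1000000 UMIs of the whole class in that library. A gene is called past the fold when its CPM differed by at least 1.5 times either way with at least 30 UMIs in the library with more. HS and QS were both set against the same PF library, so anything particular to PF enters both comparisons. UMIs are not scaled by transcript length, so levels are compared between libraries and classes and not between genes.

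**Figure D1:**
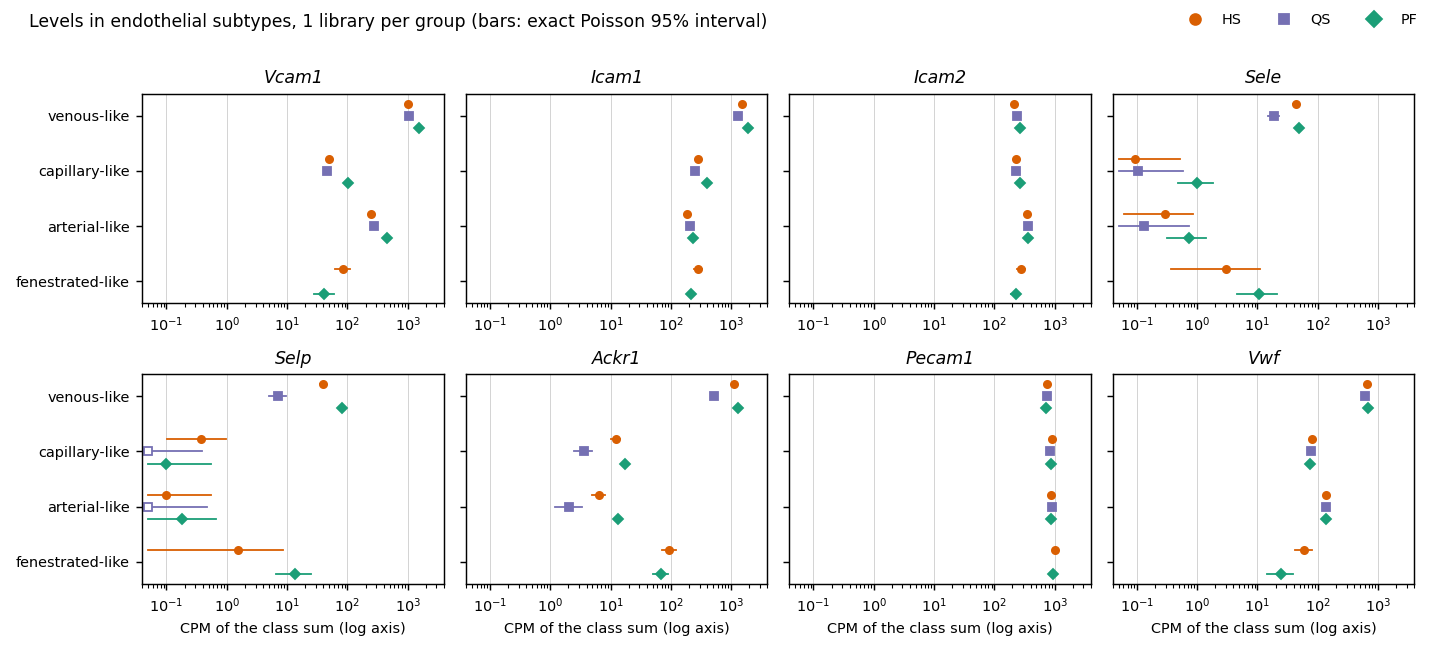
Level of each of the 8 genes (CPM, log axis) in the endothelial subtypes of HS, QS and PF, with exact Poisson 95% bars, where an open symbol at the left edge stands for 0 UMIs. Sele, Selp and Ackr1 stood high in venous-like cells, where Ackr1 reached 1114 CPM in HS, 517 CPM in QS and 1287 CPM in PF.

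Selp, which encodes the P-selectin that endothelial cells and platelets store and bring to the surface on activation, showed the widest differences among the 8 genes. In endothelial-like cells it had 10.8 CPM in HS, 1.60 CPM in QS and 22.7 CPM in PF, from 340, 39 and 736 UMIs. HS lay between QS and PF. The HS/PF ratio was 0.477 (0.418 to 0.543), the QS/PF ratio 0.0708 (0.0499 to 0.0977) and the QS/HS ratio 0.148 (0.104 to 0.207). With the mean of per-cell CPM the QS/PF ratio was 0.208 and the QS/HS ratio 0.615, both still past the fold. Nearly all endothelial Selp sat in venous-like cells, which held 328 UMIs in HS, 39 in QS and 723 in PF, or 39.1, 6.99 and 81.9 CPM. Capillary-like cells had 4 Selp UMIs in HS, 0 in QS and 1 in PF, and arterial-like cells 1, 0 and 2.

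Few cells carried those Selp UMIs. A Selp UMI was found in 62 of 463 venous-like cells in HS (13.4%, exact Clopper-Pearson interval 10.4 to 16.8), in 12 of 285 in QS (4.21%, 2.19 to 7.24) and in 63 of 516 in PF (12.2%, 9.51 to 15.4). The HS and PF shares thus overlapped within counting error while their levels did not. What differed between HS and PF was the number of UMIs per positive cell, with means of 5.29 in HS, 3.25 in QS and 11.5 in PF, and maxima of 36, 14 and 127 UMIs in a single cell. The top 1% of venous-like cells held 35.4% of Selp UMIs in HS, 66.7% in QS and 55.5% in PF, so a handful of cells sets each value. The intervals of the Selp levels and ratios, like those of the other members, treat UMIs as independent and do not cover such unevenness between cells.

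Sele encodes E-selectin, which is made anew on cytokine-activated endothelium. Its level in endothelial-like cells was 11.9 CPM in HS, 4.69 CPM in QS and 14.3 CPM in PF, from 374, 114 and 465 UMIs. QS was low: the HS/PF ratio was 0.831 (0.723 to 0.954), the QS/PF ratio 0.327 (0.264 to 0.403) and the QS/HS ratio 0.394 (0.317 to 0.487). With the mean of per-cell CPM in place of summed UMIs, Sele was also past the fold in HS against PF, at 0.534, and its QS/HS ratio was 0.625. In venous-like cells Sele stood at 42.8 CPM in HS, 18.6 CPM in QS and 49.4 CPM in PF, and 18.1% of cells in HS (14.7 to 22), 13.7% in QS (9.92 to 18.2) and 21.7% in PF (18.2 to 25.5) had a Sele UMI. Positive cells held a mean of 4.27 UMIs in HS, 2.67 in QS and 3.89 in PF. Venous-like cells accounted for 87.6% of all Sele UMIs of the HS library, 81.9% in QS and 91.6% in PF.

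Ackr1 encodes the atypical chemokine receptor 1, which binds many chemokines without signalling and marks venular endothelium. It had 314 CPM in HS, 128 CPM in QS and 373 CPM in PF over the endothelial-like cells, and only the comparisons with QS were past the fold. The HS/PF ratio was 0.841 (0.819 to 0.864), the QS/PF ratio 0.342 (0.329 to 0.356) and the QS/HS ratio 0.407 (0.391 to 0.424). Venous-like cells held 86.3% of the library's Ackr1 UMIs in HS, 87.7% in QS and 88.6% in PF. Within them it stood at 1114 CPM in HS, 517 CPM in QS and 1287 CPM in PF. A UMI of Ackr1 was found in 57.2% of venous-like cells in HS (52.6 to 61.8), 40.7% in QS (35.0 to 46.7) and 63.4% in PF (59.1 to 67.5), and positive cells averaged 35.2, 24.9 and 34.8 UMIs. Both the share of positive cells and the UMIs in them were low in QS.

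Outside venous-like cells, Ackr1 was at or near its background. It was found in 5.77% of capillary-like cells in HS, 1.68% in QS and 6.96% in PF, and in 5.27%, 1.52% and 8.37% of arterial-like cells. Oligodendrocyte-like cells, the myelin-forming cells that should lack it, had a UMI in 6.40% of cells in HS, 1.89% in QS and 8.10% in PF, at median depths of 7690, 8029 and 7042 UMIs against 4974, 4750 and 4850 UMIs in capillary-like cells. With every cell thinned to 2000 UMIs the shares were 2.16% in HS, 0.600% in QS and 2.39% in PF for capillary-like cells, and 1.41%, 0.744% and 2.07% for oligodendrocyte-like cells. Ackr1 in capillary-like and arterial-like cells is therefore not read as expression.

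**Figure D2:**
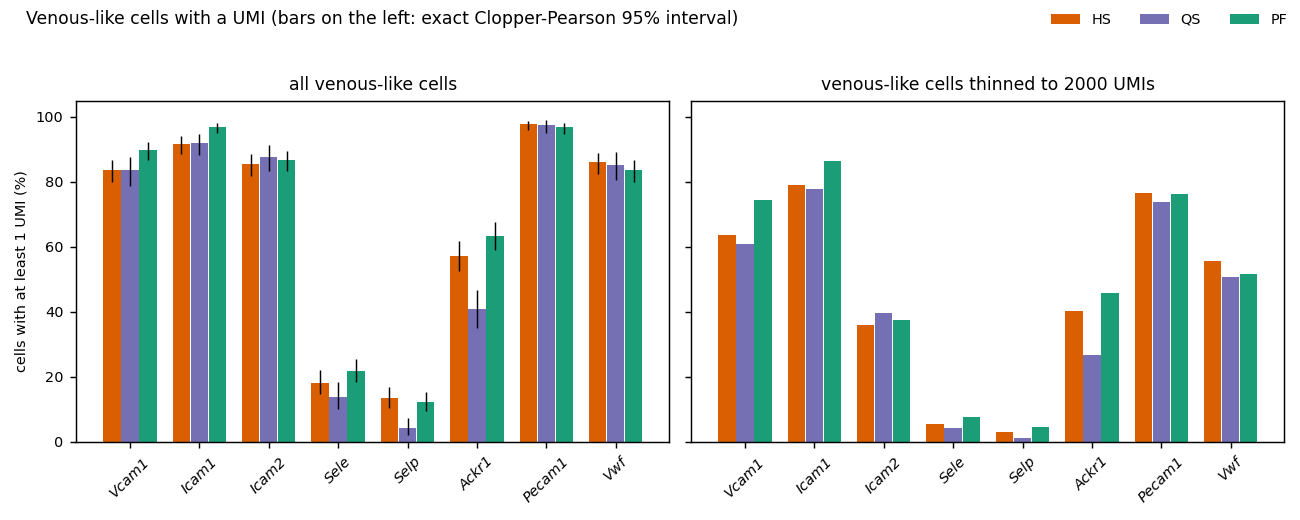
Share of venous-like cells with at least 1 UMI of each gene in HS, QS and PF (per cent, from 0), with exact 95% intervals over all cells on the left and after thinning to 2000 UMIs on the right. For Ackr1 the QS bar is lowest in both panels, at 40.7% of all cells and 26.6% of thinned cells.

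Venous-like cells differed in depth, with medians of 12538 UMIs in HS, 14610 in QS and 10666 in PF, so their shares were also taken after thinning to 2000 UMIs in 450, 278 and 495 cells, with 13, 7 and 21 shallower cells left out. Ackr1 was then detected in 40.2% of HS, 26.6% of QS and 45.9% of PF cells. Thinned shares of Sele were 5.56% in HS, 4.32% in QS and 7.68% in PF, and those of Selp were 3.11%, 1.08% and 4.65%. The library order of Ackr1 and Sele was as in the unthinned shares, while for Selp the HS and PF shares changed places. Vcam1 was found in 63.6% of thinned HS, 60.8% of QS and 74.3% of PF cells, and Icam1 in 78.9%, 77.7% and 86.5%. Pecam1, at 76.7% in HS, 73.7% in QS and 76.4% in PF, showed no such gap.

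Vcam1 encodes the ligand of the integrin VLA-4, by which lymphocytes and monocytes adhere. Its levels in endothelial-like cells were 383 CPM in HS, 370 CPM in QS and 641 CPM in PF, from 12045, 8998 and 20797 UMIs. HS and QS were both low and close to each other, with an HS/PF ratio of 0.598 (0.585 to 0.612), a QS/PF ratio of 0.578 (0.564 to 0.592) and a QS/HS ratio of 0.966 (0.940 to 0.993). Unlike the selectins and Ackr1, Vcam1 was spread over several subtypes and over classes outside the endothelium. Venous-like cells held 54.1% of all Vcam1 UMIs of the library in HS, 51.5% in QS and 57.0% in PF. These shares are of all cells of the library and not of endothelial-like cells alone.

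In venous-like cells Vcam1 stood at 1011 CPM in HS, 1062 CPM in QS and 1544 CPM in PF, in arterial-like cells at 243, 277 and 456 CPM, and in capillary-like cells at 49.5, 46.7 and 102 CPM. PF was highest in each of these 3 subtypes. The HS/PF ratio was 0.655 (0.638 to 0.673) in venous-like, 0.533 (0.508 to 0.559) in arterial-like and 0.486 (0.437 to 0.540) in capillary-like cells. The QS/PF ratio was 0.688 (0.667 to 0.709), just short of the fold, in venous-like, 0.607 (0.576 to 0.638) in arterial-like and 0.458 (0.409 to 0.512) in capillary-like cells. Arterial-like cells formed 2 sub-clusters of unequal Vcam1. The richer one had 569 CPM in HS, 610 CPM in QS and 768 CPM in PF, with a UMI in 74.1%, 76.2% and 82.2% of cells, and HS/PF and QS/PF ratios of 0.741 and 0.794. The poorer one had 109 CPM in HS, 131 CPM in QS and 295 CPM in PF, with a UMI in 20.4%, 19.3% and 32.8% of cells, and ratios of 0.369 and 0.442. The gap to PF was wider in the poorer sub-cluster, though that difference was not tested.

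Fenestrated-like cells, those of vessels without a blood-brain barrier, had Vcam1 at 83.6 CPM in HS and 41.7 CPM in PF, a ratio of 2.01 (1.27 to 3.22) that rests on 55 UMIs in 7 cells against 31 UMIs in 16 cells. That interval does not cover the spread between so few cells. Only 5 fenestrated-like cells came from QS, so no QS value is given.

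Icam1 encodes the ligand of the leukocyte integrins LFA-1 and Mac-1. Its level in endothelial-like cells was 578 CPM in HS, 488 CPM in QS and 748 CPM in PF. QS was lowest and past the fold against PF. The HS/PF ratio was 0.774 (0.759 to 0.789), the QS/PF ratio 0.653 (0.638 to 0.667) and the QS/HS ratio 0.843 (0.824 to 0.863). Venous-like cells had 1516 CPM in HS, 1310 CPM in QS and 1894 CPM in PF, and the QS/PF ratio there was 0.692 (0.673 to 0.711). Capillary-like cells had 283, 253 and 397 CPM with a QS/PF ratio of 0.638 (0.606 to 0.671), and arterial-like cells 187, 208 and 233 CPM with a ratio of 0.893 (0.839 to 0.951). Capillary-like cells alone of these 3 subtypes had Icam1 past the fold.

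Icam2, a constitutive endothelial ligand of LFA-1, varied little. Its levels were 269 CPM in HS, 276 CPM in QS and 300 CPM in PF over the endothelial-like cells, with ratios of 0.897 (0.871 to 0.923) for HS/PF and 0.922 (0.893 to 0.951) for QS/PF. Venous-like cells had 212 CPM of Icam2 in HS, 238 CPM in QS and 263 CPM in PF, and arterial-like cells 350, 355 and 367 CPM.

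Pecam1, which encodes the homophilic junction protein through which leukocytes migrate, was the steadiest member in endothelial-like cells. It stood at 848 CPM in HS, 826 CPM in QS and 834 CPM in PF, and 90.5%, 89.5% and 89.0% of endothelial-like cells had a UMI. The HS/PF ratio was 1.02 (1 to 1.03), the QS/PF ratio 0.991 (0.973 to 1.01) and the QS/HS ratio 0.974 (0.956 to 0.992). Its levels across venous-like, capillary-like and arterial-like cells of the 3 libraries lay between 722 and 900 CPM.

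Vwf encodes the multimeric blood protein that tethers platelets and is stored with P-selectin in Weibel-Palade bodies. It had 256 CPM in HS, 224 CPM in QS and 266 CPM in PF over the endothelial-like cells, with an HS/PF ratio of 0.963 (0.934 to 0.993), a QS/PF ratio of 0.845 (0.817 to 0.874) and a QS/HS ratio of 0.877 (0.848 to 0.908). Venous-like cells had 653 CPM in HS, 616 CPM in QS and 685 CPM in PF, capillary-like cells 79.7, 77.6 and 75.0 CPM, and arterial-like cells 138, 137 and 138 CPM. Vwf was highest in venous-like cells in each library. In fenestrated-like cells it was 59.3 CPM in HS and 24.2 CPM in PF, a ratio of 2.45 (1.37 to 4.55) from 39 and 18 UMIs in 5 cells of each library.

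Counted together in endothelial-like cells, 2 of 8 members were past the fold in HS against PF (Vcam1 and Selp, both lower), where 4.93% of the 14232 genes measured were past it either way and 1.85% were lower. In QS against PF 5 of 8 were past it (Vcam1, Icam1, Sele, Selp and Ackr1, all lower), against 7.05% of 13894 genes either way and 5.25% lower. In QS against HS 3 of 8 were past it (Sele, Selp and Ackr1, all lower), against 8.93% of 13970 genes either way and 6.69% lower. The median log2 ratio over all genes measured was -0.01 for HS/PF, -0.01 for QS/PF and 0.00 for QS/HS. The members were chosen with earlier results of these data known. The shares over all genes are also not matched to genes confined to venous-like cells. These counts, and those by subtype below, are therefore a description and not a test of the members against all genes.

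Within venous-like cells, 2 of 8 members were past the fold in HS against PF (Vcam1 and Selp), beside 5.54% of all genes. Sele, Selp and Ackr1 made 3 of 8 in QS against PF, beside 7.24% of all genes, and the same 3 were past it in QS against HS, beside 9.81%. Their QS/PF ratios in venous-like cells were 0.377 (0.302 to 0.468) for Sele, 0.0853 (0.0602 to 0.118) for Selp and 0.402 (0.386 to 0.419) for Ackr1. In capillary-like cells 1, 3 and 1 of the 6 members measured were past the fold in HS/PF, QS/PF and QS/HS, beside 3.69%, 4.36% and 6.08% of all genes. In arterial-like cells the counts were 2, 2 and 1 of 6, beside 4.61%, 4.72% and 7.5%. Ackr1 at the background level is 1 of the calls in QS/PF and QS/HS in both subtypes and in HS/PF in arterial-like cells. In fenestrated-like cells 2 of 6 were past the fold in HS against PF, both higher, beside 14.7% of all genes.

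**Figure D3:**
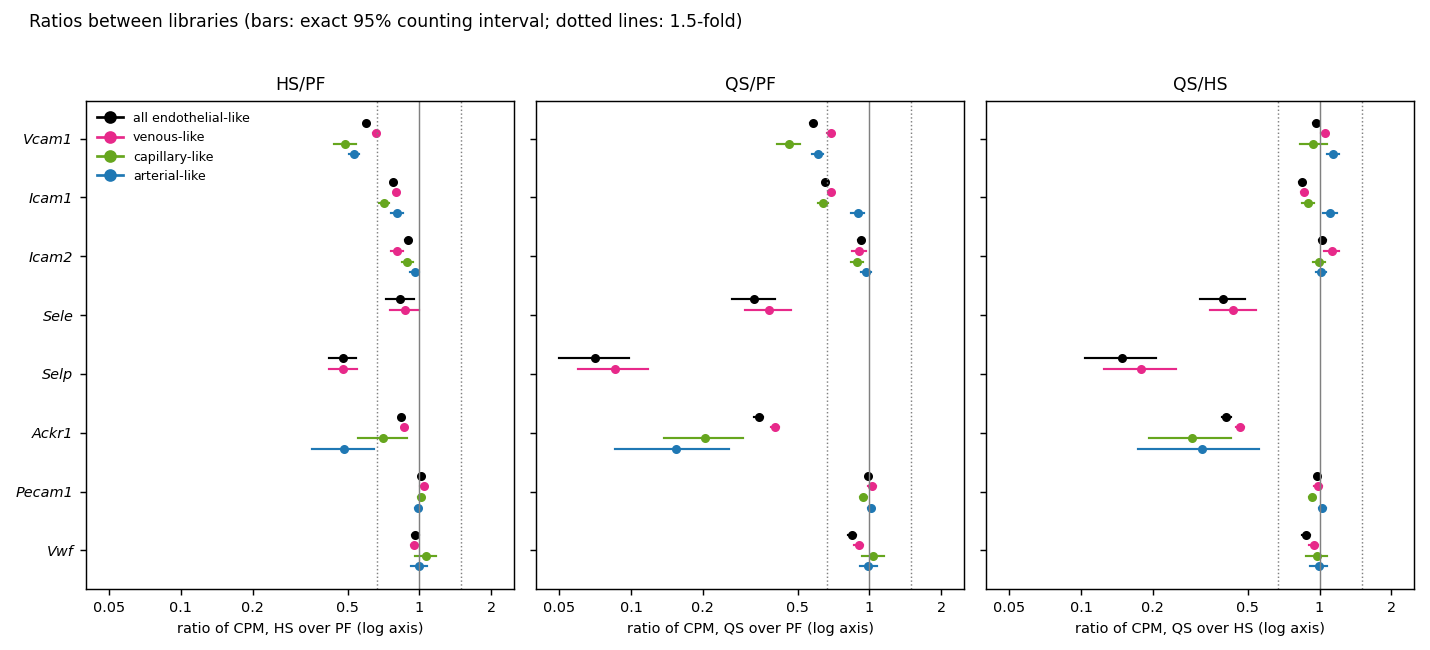
Ratio of CPM of each gene for HS/PF, QS/PF and QS/HS (log axis) in all endothelial-like cells and in the venous-like, capillary-like and arterial-like cells, with exact 95% counting intervals. Pecam1 stayed near 1 throughout, and Selp in QS/PF lay at 0.0708 in all endothelial-like cells.

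The mix of subtypes also differed between the libraries. Venous-like cells made up 12.1% of endothelial-like cells in HS, 8.90% in QS and 12.8% in PF (463, 285 and 516 cells), capillary-like cells 46.5%, 52.1% and 44.1%, and arterial-like cells 28.7%, 26.7% and 28.6%. The venous-like share was lowest in QS under all 6 clusterings run. The capillary-like share was higher in QS than in PF under 4 of the 6 only: it was 11.8% in QS and 13.3% in PF at the higher resolution, and 36.1% and 37.3% with at least 1000 UMIs per cell. With the same mix of these 3 subtypes given to each library, a setting chosen after the data were seen, the QS/PF ratio was 0.367 for Sele, 0.0850 for Selp, 0.395 for Ackr1 and 0.653 for Vcam1, all still past the fold. Icam1 was 0.703 and no longer past it.

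Some venous markers were also lower in QS, and others were not. The 10 venous markers, none of them a member, summed to 7798 CPM in HS, 4849 CPM in QS and 6508 CPM in PF within venous-like cells, with Lcn2 the largest term, and 3 of 10 were past the fold and lower in QS against PF, with 0 higher. In QS against HS 1 of 10 was higher and 4 were lower. The 3 markers lower in QS against PF were Lcn2, Ch25h and Lrg1. Lcn2, an iron-binding acute-phase protein, had 3806 CPM in HS, 1719 CPM in QS and 2967 CPM in PF, and Ch25h, which makes 25-hydroxycholesterol, had 241, 56.4 and 183 CPM. Lrg1, a secreted glycoprotein made by venules, had 792, 368 and 605 CPM. Nr2f2, the transcription factor of venous identity, had 286 CPM in HS, 328 CPM in QS and 287 CPM in PF, and the amino-acid transporter gene Slc38a5 had 729, 716 and 783 CPM. Flrt2 had 114 CPM in HS, 222 CPM in QS and 157 CPM in PF, Ctsc 318, 396 and 366 CPM, and Ephb4 56.6, 73.3 and 60.4 CPM, each highest in QS. In HS against PF 1 of 10 was higher, Il1r1, at 822 CPM in HS and 479 CPM in PF, and 0 were lower, while Selp and Vcam1 were lower there. The part of these markers in the lower Sele, Selp and Ackr1 of QS was not tested.

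Markers of other cells in venous-like cells were as follows. The 8 platelet markers, relevant because platelets also hold P-selectin and von Willebrand factor, summed to 15.5 CPM in HS, 12.7 CPM in QS and 16.5 CPM in PF, of which Itga2b alone gave 12.4, 11.1 and 13.3 CPM. Ppbp stood at 0.597 CPM in HS, 0.358 CPM in QS and 0.340 CPM in PF, and Treml1 had 0 UMIs in all 3 libraries. The 9 pericyte markers summed to 141, 101 and 150 CPM, the 9 microglia markers to 200, 158 and 224 CPM and the 9 oligodendrocyte markers to 196, 171 and 227 CPM. These sums were lowest in QS and differed by less than the fold between libraries, but single markers differed more. In QS against PF, 3 of the 5 pericyte markers measured were past the fold and lower, and 1 was higher. Of 7 microglia markers measured, 4 were lower and 0 higher. Among 8 oligodendrocyte markers measured, 2 were lower and 1 higher. The 6 erythroid markers summed to 41.5 CPM in HS, 51.1 CPM in QS and 131 CPM in PF, which was past the fold. The part of all these RNAs in the member levels was not tested.

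A cluster that no marker list could name held venous and ependymal genes together (leading genes Lcn2, Ackr1, Lrg1, Ptgs2, Vwf and, of ependymal cells, Ccdc153), and 61 of its 65 cells came from QS, with 3 from HS and 1 from PF. The QS cells had a median of 2702 UMIs, with Vcam1 at 1042 CPM, Icam1 at 780 CPM and Ackr1 at 299 CPM. Its 3 HS cells held 506 Ackr1 and 37 Selp UMIs. When the cells of all 4 unnamed clusters were added to the endothelial-like cells, another setting chosen after the data were seen, the QS/PF ratios were 0.602 for Vcam1, 0.659 for Icam1, 0.355 for Sele, 0.0737 for Selp and 0.349 for Ackr1. The same 5 members stayed past the fold. The endothelial-like cells of sub-clusters without a name (403 in HS, 390 in QS and 518 in PF) had medians of 1460, 1473 and 1541 UMIs, and there Vcam1 stood at 322 CPM in HS, 344 CPM in QS and 627 CPM in PF.

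Members were found together unevenly among thinned venous-like cells. Ackr1 was detected in 52.0% of cells with a Vwf UMI in HS, 40.4% in QS and 61.6% in PF, against 25.5%, 12.4% and 29.2% of cells without one. Selp was seen in 5.60% of cells with Vwf in HS, 2.13% in QS and 9.02% in PF. Among the cells without Vwf it was seen in 0 of 200 in HS, 0 of 137 in QS and 0 of 240 in PF, which allows shares of up to 1.5%, 2.19% and 1.25%. These limits are for cells with a UMI at this depth and not for expression, and the QS limit is above the Selp share of all its thinned venous-like cells (1.08%), so the QS value shows no difference.

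Vcam1 was detected in 80.7% of thinned cells with Ackr1 in HS, 91.9% in QS and 88.5% in PF, against 52.0%, 49.5% and 62.3% of cells without Ackr1. Icam1 was found in 86.0%, 86.4% and 89.4% of cells with Vcam1, against 66.5%, 64.2% and 78% of those without. Not every pair showed such a gap: Sele was found in 5.60% of HS cells with Vwf and 5.50% of those without, and Icam1 in 78.7% of QS cells with Vwf and 76.6% of those without.

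**Figure D4:**
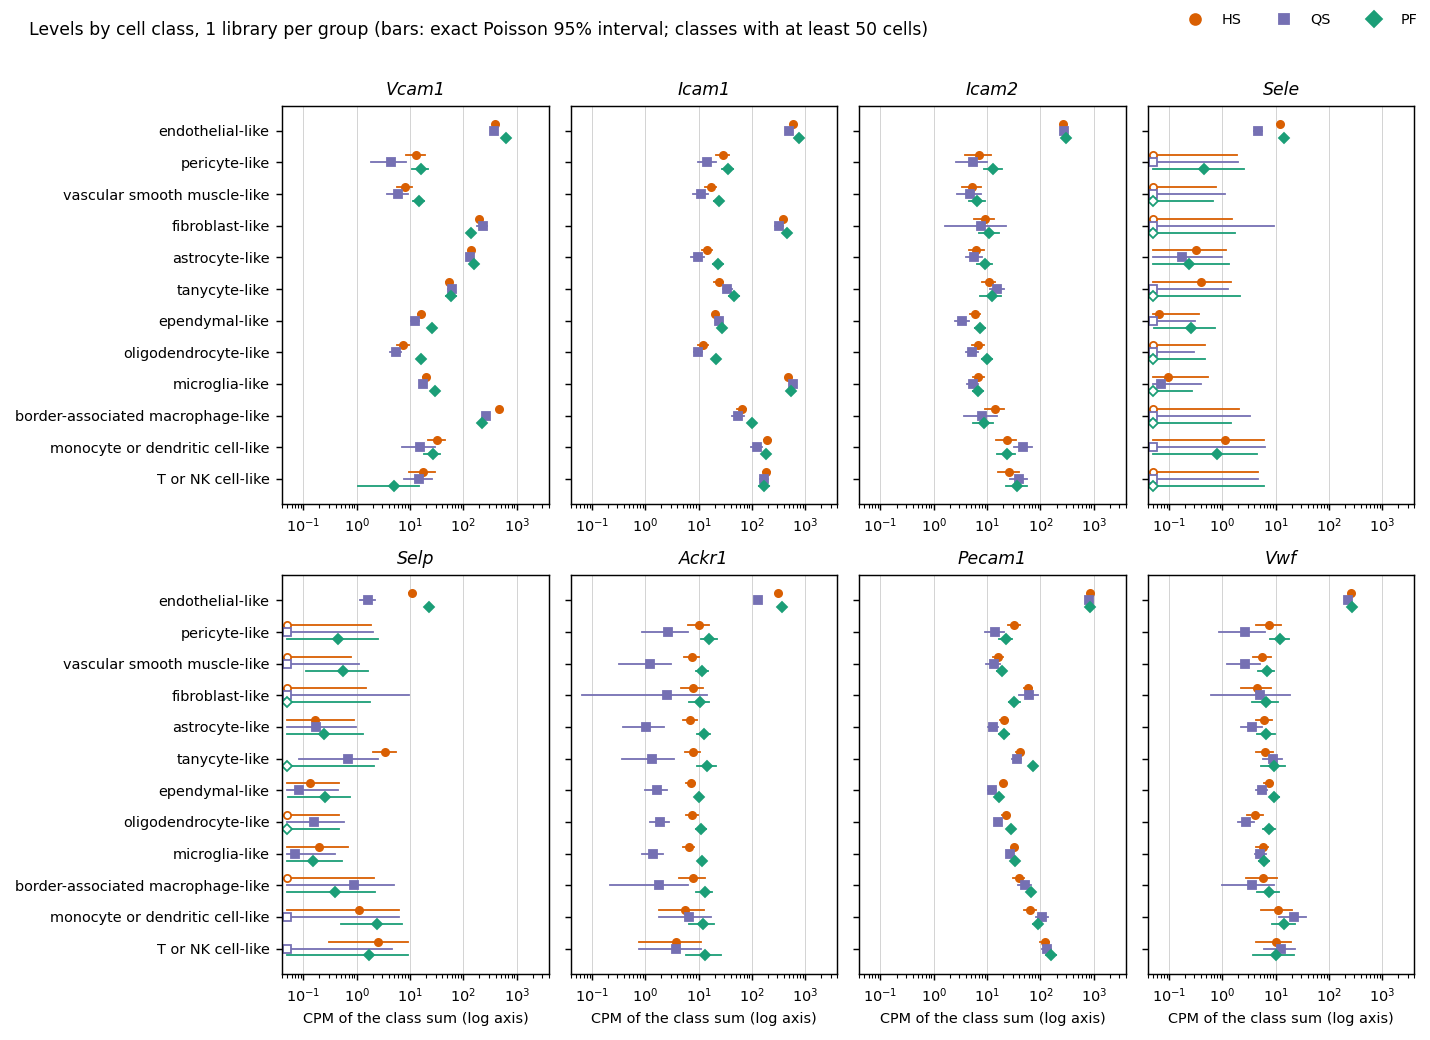
Level of each gene (CPM, log axis) in cell classes with at least 50 cells in HS, QS and PF, with exact Poisson 95% bars, where an open symbol at the left edge stands for 0 UMIs. Vcam1 in border-associated macrophage-like cells reached 474 CPM in HS, against 224 CPM in PF.

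Beyond the endothelium, Vcam1 was present in several classes above its background in oligodendrocyte-like cells (7.34 CPM in HS, 5.40 CPM in QS and 16.3 CPM in PF). Border-associated macrophage-like cells, the macrophages of meninges and perivascular spaces, had 474 CPM in HS, 268 CPM in QS and 224 CPM in PF, from 835, 301 and 572 UMIs in 193, 131 and 278 cells. The share of these cells with a UMI was 65.8% in HS, 48.1% in QS and 48.6% in PF. HS stood above the others, with an HS/PF ratio of 2.11 (1.90 to 2.35), a QS/PF ratio of 1.2 (1.04 to 1.38) and a QS/HS ratio of 0.566 (0.495 to 0.647). All 4 members measured in this class were past the fold in HS against PF, with Vcam1 higher and Icam1, Pecam1 and Ackr1 lower, beside 9.57% of all genes. Ackr1 there was near its background, at 7.95 CPM in HS and 12.9 CPM in PF. The direction of the Vcam1 level was opposite to that in all endothelial-like cells and the same as in the few fenestrated-like cells. In the fenestrated-like cells, unlike here, the share of cells with a UMI was lower in HS than in PF. A cluster left unnamed, whose markers matched border-associated macrophages best and microglia next, went the other way. It had Vcam1 at 71.8 CPM in HS and 198 CPM in PF, from 45 and 172 UMIs in 81 and 118 cells.

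Astrocyte-like cells had Vcam1 at 142 CPM in HS, 134 CPM in QS and 158 CPM in PF, with a UMI in 38.1%, 34.8% and 39.5% of cells. Tanycyte-like cells, which line the floor of the third ventricle, had 53.6, 61 and 58.7 CPM. Neither class passed the fold for Vcam1 in any comparison. Fibroblast-like cells had 197 CPM in HS, 228 CPM in QS and 137 CPM in PF. Their QS/PF ratio was 1.67 (1.3 to 2.13), beside 31.4% of all genes past the fold and a median log2 ratio of -0.19 over all genes, from only 70 QS cells against 311 PF cells.

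Icam1 was highest outside the endothelium in microglia-like cells, the resident macrophages of the brain, with 471 CPM in HS, 598 CPM in QS and 539 CPM in PF and a UMI in 79.6%, 85.0% and 84.2% of cells. The QS/PF ratio was 1.11 (1.07 to 1.14) there, against 0.653 in endothelial-like cells. Fibroblast-like cells had 386 CPM of Icam1 in HS, 328 CPM in QS and 463 CPM in PF, and border-associated macrophage-like cells 64.1, 54.4 and 100 CPM. Oligodendrocyte-like cells had 12, 9.71 and 20.8 CPM. Pecam1 was also found in T or NK cell-like cells (121 CPM in HS, 131 CPM in QS and 159 CPM in PF) above its 22.4, 16.0 and 28.5 CPM in oligodendrocyte-like cells. Levels of Vwf in oligodendrocyte-like cells were 4.17 CPM in HS, 2.82 CPM in QS and 7.64 CPM in PF. In QS against PF, Icam1 was past the fold and lower in 7 of 12 classes measured. So was Vcam1 in 7 of 11, with 1 higher, and Ackr1 in all 8. Lower too were all 6 members measured in oligodendrocyte-like, all 4 in pericyte-like and 2 of 6 in microglia-like cells. Of all genes there, 4.6%, 4.74% and 4.01% were lower. In oligodendrocyte-like cells the endothelial markers summed to 380 CPM in HS, 319 CPM in QS and 501 CPM in PF. The part of RNA from other cells in these levels was not tested.

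Sele and Selp had few UMIs in the other named classes. Sele had at most 3 UMIs in any of them in any library. Selp had 17 UMIs in 2 tanycyte-like cells of HS. Neutrophil-like cells had 7 Selp UMIs over all their 42 cells in HS and 6 over all their 19 cells in QS. Each of the rest had at most 3 Selp UMIs. The neutrophil-like cells summed to only 240675 UMIs in HS and 83717 in QS, so these few Selp UMIs are not a low CPM. In QS that CPM was above the one in venous-like cells, though it rests on 6 UMIs.

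Other genes of the pathway were read in endothelial-like cells from 5 lists. Of 16 genes that NF-kB induces or that feed back on it, 15 were measured. In HS against PF 1 was higher and 3 lower: Il1r1, the interleukin-1 receptor and also 1 of the venous markers, had 261 CPM in HS and 154 CPM in PF, a ratio of 1.70 (1.64 to 1.76). Csf1, the macrophage growth factor, had 83.3 CPM in HS and 133 CPM in PF (0.629), the chemokine Cxcl1 174 and 267 CPM (0.652), and the membrane chemokine Cx3cl1 82.7 and 126 CPM (0.657). In QS against PF 0 were higher and 4 lower, with Nfkb2 at 26.2 CPM in QS and 41.9 CPM in PF (0.625), Csf1 at 86.9 and 133 CPM (0.656), Ccl2 at 2.63 and 6.38 CPM (0.413) and Cxcl1 at 177 and 267 CPM (0.663). The median log2 ratio of the list was -0.19 for HS/PF, -0.45 for QS/PF and -0.19 for QS/HS. In QS against HS 2 were lower, Ccl2 (0.613) and Il1r1, which had 116 CPM in QS and 261 CPM in HS (0.442).

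Of 9 genes of Weibel-Palade body contents and release, all 9 were measured and 0 were past the fold in any of the 3 comparisons, with median log2 ratios of 0.05 for HS/PF, -0.14 for QS/PF and -0.24 for QS/HS. In venous-like cells alone 1 of 9 was higher in HS against PF (Angpt2, 44 UMIs in HS and 23 in PF, 2.02), 1 of the 8 measured was lower in QS against PF (Rab27a, 0.579) and 3 of 9 were lower in QS against HS (Angpt2 0.478, Cd63 0.631 and Rab27a 0.620). The medians there were 0.23 for HS/PF, -0.18 for QS/PF and -0.37 for QS/HS. Over all endothelial-like cells Edn1, the vasoconstrictor endothelin, had 321 CPM in HS, 324 CPM in QS and 328 CPM in PF, and the tissue plasminogen activator gene Plat had 532, 419 and 420 CPM. The 6 shedding genes had 0 past the fold in each comparison, with medians of -0.02 for HS/PF, 0.00 for QS/PF and -0.03 for QS/HS.

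Transmigration and junction genes numbered 16, of which 14 were measured. None were past the fold in HS against PF, while Icam5 (0.635) was lower in QS against PF and Bst1 (0.616) in QS against HS. Of 12 leukocyte counter-receptors, the integrins and ligands that the members bind, 9 were measured. In HS against PF 0 were past the fold, and in QS against PF Itgb2, the shared beta chain of the leukocyte integrins, was lower (0.540, from 17 UMIs in QS and 42 in PF), as was Itga9 (0.540). Itgb2 (0.523) and Itga9 (0.582) were also lower in QS against HS. Itgb2 stood at only 0.699 CPM in QS and 1.29 CPM in PF. Whether these UMIs came from the endothelial-like cells or from RNA of leukocytes was not tested.

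Likeness of pattern was described by Pearson's r of log2(CPM + 1) over 48 columns, each a cell class in a library, for 9662 genes. Columns share libraries and depth and are not independent. Among the genes below, Lrg1, Lcn2 and Ch25h are markers that named venous-like cells, and Egfl7, Ly6c1, Erg and Cdh5 are markers that named endothelial-like cells. Their likeness to members high in those columns is partly built in. The 3 genes most like Sele were Grem1 (0.93), Lrg1 (0.92) and Lcn2 (0.81), those most like Selp were Grem1 (0.87), Lrg1 (0.85) and Bst1 (0.72), and those most like Ackr1 were Lrg1 (0.92), Lcn2 (0.87) and Grem1 (0.84). Lrg1 and Grem1 were thus among the nearest genes of all 3. For Vcam1 they were Dab2 (0.82), Ch25h (0.77) and Mcc (0.74), and for Icam1 Lgals9 (0.90), B2m (0.88) and Rin3 (0.88). For Icam2 they were Egfl7, Ly6c1 and Erg (0.98 each), for Pecam1 Cyyr1, Cdh5 and Tnfsf10 (0.97 each), and for Vwf Srarp, Slc52a3 and Fn1 (0.93 each). Among members, r was 0.92 for Sele with Selp, 0.90 for Sele with Ackr1, 0.97 for Icam2 with Pecam1 and 0.56 for Vcam1 with Icam1.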

How the data were processed

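Single cells were freed from hypothalami with collagenase II and mechanical force and captured with the 10x 3′ kit (version 3), per the labels. The authors deposited matrices of raw UMI counts for each gene in each barcode. They come from Cell Ranger on mm10, in version 7.0.1 per the file headers but 5.0.0 per the submitters' processing notes, where Seurat 3.1.2 is listed too. No source used here says whether intronic reads were counted.

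Of 12510 HS, 11720 QS and 12836 PF barcodes, those with at least 500 UMIs, 200 genes and at most 20% mitochondrial UMIs were kept (208, 211 and 194 removed). Scrublet, run in Scanpy 1.11.5 with 0.8% expected per 1000 barcodes, then removed 672, 727 and 784 doublets (5.46%, 6.32% and 6.20%). All 3 libraries entered 1 clustering with no integration, from counts scaled to 10000 per cell, 2000 variable genes with the 8 members taken out, 30 principal components, 15 neighbours, and Leiden clustering (leidenalg 0.10.2, seed 0) at resolution 1 for all cells (37 clusters, 4 unnamed) and 0.5 for endothelial-like cells (11 sub-clusters, 5 unnamed). Names needed at least 3 markers in at least 25% of cells at 4 times the median cluster CPM (1.5 times for subtypes), and no member is a marker. The suffix "-like" marks names given from RNA only.

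UMIs were summed by class and library and given as CPM, for ratios where both libraries had at least 50 cells of the class. Ratios carry exact conditional binomial intervals, levels exact Poisson intervals and shares exact Clopper-Pearson intervals, all 95%. With 1 library per group no test was made. Simulated counts were also drawn, but their outcome is not given here, and nothing about the calls in these libraries is concluded from them. The members, gene lists and markers were chosen with earlier results of these data known. Named genes are the members, up to 4 genes past the fold per list and comparison, and the 3 most like each member in pattern (genes of at least 50 CPM in some column). Markers, Edn1, Plat, the Weibel-Palade genes of venous-like cells and the cluster of venous and ependymal genes were picked after their values were seen. Alternatives changed the clustering, filters, doublets, normalization, free RNA, minimum of UMIs and fold. Coordinates are 1-based, from GENCODE M21. Computation used pandas 2.3.3, NumPy 2.4.6, AnnData 0.12.19, SciPy 1.17.1 and matplotlib 3.10.9 under Python 3.11.15.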

Additional observations from a re-analysis of the deposited data

Results flagged for a closer look

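Vcam1 differed between HS and PF in opposite directions in different classes. Its HS/PF ratio was 2.11 in border-associated macrophage-like cells, against 0.598 in all endothelial-like, 0.655 in venous-like, 0.533 in arterial-like and 0.486 in capillary-like cells. Fenestrated-like endothelial cells, with 55 UMIs in HS and 31 in PF, had a ratio of 2.01, in the direction of the macrophage-like cells. Fewer of these fenestrated-like cells had a Vcam1 UMI in HS than in PF, however, so share and level went opposite ways. In the macrophage-like cells both were higher in HS. An unnamed cluster whose markers matched border-associated macrophages best, with microglia next, had lower Vcam1 in HS, at 71.8 CPM against 198 CPM in PF. The difference between these ratios was not tested, because each group has 1 library.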

How the results depend on the processing

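No paired analysis was possible because each group has 1 library. Of 264 member ratios in endothelial-like cells recomputed under alternatives, 261 kept their direction and 4 moved by over 1.5 times, all with the mean of per-cell CPM in place of summed UMIs: Selp to 0.208 in QS/PF and 0.615 in QS/HS, and Sele to 0.534 in HS/PF and 0.625 in QS/HS. No ratio past the fold changed direction. The number of members past the fold in endothelial-like cells was 2 or 3 for HS/PF, 4 or 5 for QS/PF and 3 for QS/HS under every alternative run. Pairs of a member and a subtype past the fold numbered 7 for HS/PF and 5 for QS/HS. With no minimum of UMIs they numbered 13 and 8, through pairs resting on few UMIs, and with the mean of per-cell CPM the QS/HS number was 3. With 8 pairs for QS/PF, the alternatives gave 6 to 12. Depth limits Sele and Selp outside venous-like cells, where most values rest on under 30 UMIs, and the number of venous-like cells varied with the clustering (301 to 948 in HS, 94 to 584 in QS and 240 to 936 in PF).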
